A study of Mus musculus with 12 samples.

Results

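A set of 43 genes of axon growth and guidance was followed in cultured mouse cortical neurons after lentiviral knockdown of RNA-editing enzymes or of Zfr. The members were listed by gene symbol, by a rule that takes no measured value but was drawn up with earlier results of these data known: 13 genes of the growth cone and its cytoskeleton, 7 cell adhesion molecules of the immunoglobulin superfamily, 5 netrin receptors, 5 Slit and Robo genes, 7 semaphorins, plexins and neuropilins, and 6 Eph receptors and ephrins. They are 43 of 23955 genes in the count tables, and all 43 were among the 14785 genes that passed the filter on low counts and were tested.

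The neurons were dissociated from cortices of C57BL/6J embryos of stage E16.5, infected 1 day after seeding with lentivirus that carried a short hairpin RNA (shRNA) in the pGreenPuro backbone, and harvested 7 days after dissection. There were 5 groups of 2 biological replicates: the control hairpins shControl1 and shControl2, shAdar1 (against Adar, which encodes the editing enzyme ADAR1), shAdar2 (against Adarb1, which encodes ADAR2) and shZfr (against Zfr, which encodes a zinc finger RNA-binding protein). All groups, controls included, carried lentivirus and a hairpin, and RNA was taken from the whole culture. The study set shAdar1 and shAdar2 against shControl1 and shZfr against shControl2, and each knockdown is set here against both control hairpins. What share of the cells carried the virus, whether infected cells were selected, and whether the replicates came from separate dissections are not given in the sources used here, so p-values measure the spread between these samples.

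An axon grows by adding microtubules and actin behind a motile tip, the growth cone. Stathmins, collapsin response mediator proteins (CRMPs), doublecortin and microtubule-associated protein 1B act on microtubules there, and GAP-43 and BASP1 act at the membrane. The growth cone is steered by secreted and membrane-bound cues: netrin is read by DCC and UNC5 receptors, Slits by Robo receptors, class 3 semaphorins by neuropilins and plexins, and ephrins by Eph receptors. Adhesion molecules of the immunoglobulin superfamily hold growing axons to each other and to their substrate. In cortical neurons of late embryonic stage most of these genes are expressed while axons extend.

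Libraries held 15818900 to 29671900 expected counts. The 2 shZfr samples differed from each other far less than other replicate pairs did: the chi-square statistic per gene was 2.28 between them and 26.4 to 61.0 between the other pairs of biological replicates, and the 3 technical libraries of shAdar2 replicate 1 gave 21.5 to 58.2. Of these, technical library 2 stood apart, at 58.2 from library 1 and 37.7 from library 3, against 21.5 between libraries 1 and 3. The 3 were summed to 1 sample of 82653800 counts. The shZfr samples did differ beyond sampling noise and were kept as 2, and the calls of members against the controls that were lost with them summed to 1 sample are named below. Each hairpin lowered its target against both controls. Adar in shAdar1 was at 30.9% of shControl1 and 41.5% of shControl2, Adarb1 in shAdar2 at 41.7% and 52.5%, and Zfr in shZfr at 61.9% and 37.6%. Zfr was 1.65 times as high in shControl2 as in shControl1. It was also low in shAdar2, at 67.5% of shControl1 and 41.0% of shControl2, and was not called between shAdar2 and shZfr (log2 0.12 ± 0.11 SE, edgeR adjusted p = 0.36). Adarb1 was likewise low in shZfr, at 39.3% of shControl1 and 49.5% of shControl2, and was not called between these groups (log2 0.08 ± 0.12 SE, edgeR adjusted p = 0.56). Astrocyte markers differed between the control hairpins, with 11 of 12 higher in shControl2 than in shControl1 (19.9% of all genes, median log2 fold change 1.39). None was at 0, and their summed level was 2041 to 2812 TPM in shControl1, 6950.4 to 7393 in shControl2, 3514 to 7133 in shAdar1, 1158 to 2722 in shAdar2 and 6452 to 7012 in shZfr. The 14 pan-neuronal markers summed to 3358 to 4734 TPM over all 10 samples, the 10 GABAergic markers to 454 to 994 TPM and the microglia markers to 0.39 to 13.9 TPM. By group, the GABAergic markers summed to 556 to 591 TPM in shControl1, 873 to 879 in shControl2 and 564 to 994 in shAdar1. They summed to 663 to 923 in shAdar2 and 454 to 465 in shZfr. Of the pan-neuronal markers, 3 were lower (23.2% of all genes) and 4 higher (23.2%) in shAdar2 than in shControl1. Relative to shControl2, 5 were lower (27.3%) and 5 higher (32.2%). The 12 excitatory markers summed to 936 to 1043 TPM in shControl1, 1812 to 1939 in shControl2, 1121 to 1284 in shAdar1, 1001 to 1049 in shAdar2 and 1415 to 1436 in shZfr. Of the 12, 8 were higher in shControl2 than in shControl1 (19.9% of all genes) and 0 lower (23.2%). In shAdar2, 8 were lower (27.3%) and 2 higher (32.2%) than in shControl2, and 3 lower (23.2%) and 5 higher (23.2%) than in shControl1. The oligodendrocyte lineage markers summed to 92.8 to 139 TPM in shControl1, 438 to 466 in shControl2, 154 to 423 in shAdar1, 119 to 347 in shAdar2 and 227 to 265 in shZfr. All 13 tested interferon-stimulated genes were higher in shAdar2 than in both controls (15.2% of all genes). The list summed to 169 TPM in 1 shAdar2 sample and 604 in the other, against 7.8 to 20.1 TPM in the other groups. The 12 markers of proliferating progenitors summed to 831 to 894 TPM in shZfr and to 184 to 621 TPM in the other samples. In bulk RNA, fewer cells of a type and less RNA per cell cannot be told apart, and what part the makeup of the cultures had in the members' values was not tested.

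Promoter sequence from RefSeq (build GRCm38.p6) was at hand for 31 of the 43 members. The 3 shown lie just upstream of the start sites of the member with the deepest fall (Map1b) and of a pair of netrin receptors that moved in opposite directions in shAdar2 (Unc5c and Unc5b). Each holds the 250 bases before the start site, written 5′ to 3′ on the strand of the gene, with capitals for a TATA box (TATAAA) or a GC box (GGGCGG, or CCGCCC where it lies on the other strand). Map1b lies at chr13:99516603-99516852 on the minus strand, Unc5c at chr3:141465314-141465563 on the plus strand and Unc5b at chr10:60831582-60831831 on the minus strand.
Map1b: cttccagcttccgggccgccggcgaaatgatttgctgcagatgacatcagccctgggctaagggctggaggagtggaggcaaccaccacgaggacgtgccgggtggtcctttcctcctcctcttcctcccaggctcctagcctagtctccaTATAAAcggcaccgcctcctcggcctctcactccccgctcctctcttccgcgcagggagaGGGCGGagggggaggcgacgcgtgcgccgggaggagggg
Unc5c: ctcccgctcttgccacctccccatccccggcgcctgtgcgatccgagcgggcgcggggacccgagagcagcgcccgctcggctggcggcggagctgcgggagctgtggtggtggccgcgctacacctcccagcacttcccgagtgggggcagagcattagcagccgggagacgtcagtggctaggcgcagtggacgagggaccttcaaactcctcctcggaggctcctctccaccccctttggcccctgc
Unc5b: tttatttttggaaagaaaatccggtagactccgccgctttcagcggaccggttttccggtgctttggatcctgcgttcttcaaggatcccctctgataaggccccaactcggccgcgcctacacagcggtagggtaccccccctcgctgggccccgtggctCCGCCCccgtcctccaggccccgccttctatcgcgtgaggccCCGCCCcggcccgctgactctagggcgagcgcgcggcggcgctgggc

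The Map1b window held 1 TATA box and 1 GC box on the strand of the gene, the Unc5b window 2 GC boxes on the opposite strand, and the Unc5c window none of the 5 motifs searched. Both strands of the 250 bases were searched in 31 members and in 27025 genes. The 31 members had 40 windows, and a gene counted if any of its windows held the motif. The 27025 genes were not limited to those tested here, while all the members were tested. The GC box, bound by Sp family factors, was in 20 of 31 members (64.5%) and in 35.4% of all genes. CCAAT was in 7 members (22.6%, against 37.5% of all genes) and TATAAA in 5 (16.1%, against 14.3%). TTCNNNGAA, the sequence read by STAT factors, was found in 1 member, Epha3 (3.23%, against 8.13%), and TGACGTCA, the cyclic AMP response element, in no member (1.77% of all genes). Of the members lower than both controls in shAdar2, Map1b, Epha4 and Epha7 held a GC box. Dcx, Chl1, Unc5c, Sema3a and Epha3 were searched and held none. Stmn2, Gap43, Dpysl2, Dpysl3, Ncam1, Dcc and Plxna4, also lower, had no promoter sequence at hand. Unc5b and Slit3, the members higher than both controls, each held a GC box.

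Of the 3 knockdowns, shAdar2 had the most members called, and mostly lower, as the map of levels by sample shows. A gene was called higher or lower at an adjusted p under 0.05 in edgeR's quasi-likelihood test, adjusted over all genes tested, and log2 stands below for a log2 fold change. Against shControl1, 24 of 43 members were lower in shAdar2 (23.2% of all genes) and 5 higher (23.2%), with a median log2 fold change of −0.61 against 0.04 over all genes. Against shControl2, 20 members were lower (27.3% of all genes) and 9 higher (32.2%), with a median of −0.35 against 0.09.

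**Figure D1:**
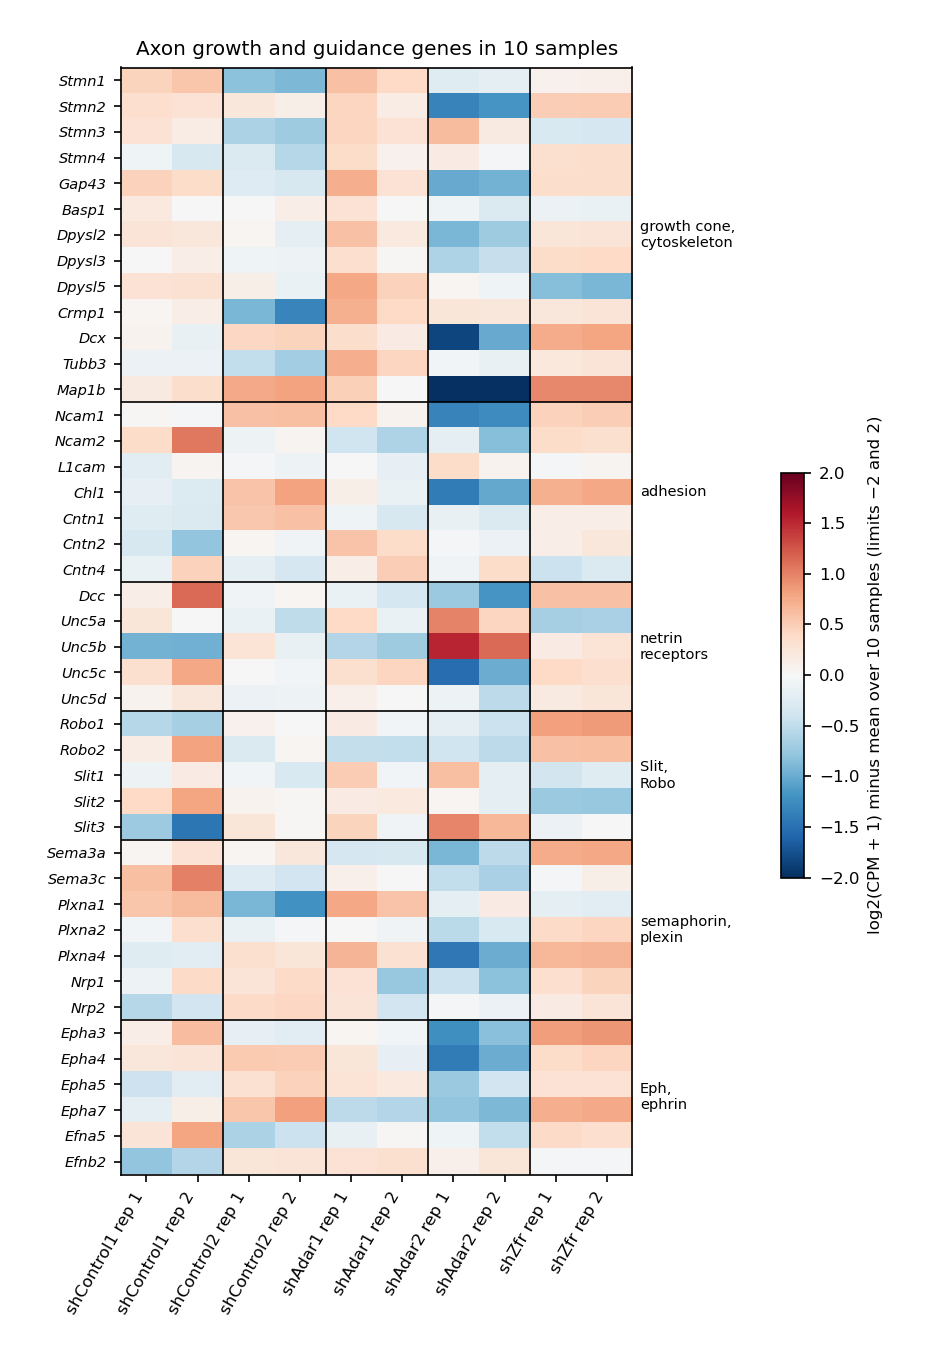
Levels of the 43 members (rows, by role) in 10 samples (columns), as log2(CPM + 1) minus the mean of the gene over the 10 samples, with colours held between −2 and 2. The shAdar2 columns hold the deepest blue, with Map1b past the lower limit, and the 2 shZfr columns are nearly alike.

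In shZfr the members moved both ways. Against shControl2, its control in the study, 13 members were higher (16.7% of all genes) and 4 lower (14.1%), with a median log2 fold change of 0.32 against 0.05 over all genes. Against shControl1, 18 were higher (22.8%) and 7 lower (23.4%), with a median of 0.19 against −0.03. The median against shControl1 was 0.12 without shControl1 replicate 1 and 0.37 without shControl1 replicate 2. With the shZfr samples summed to 1, 11 of the 17 calls against shControl2 were kept, and those of Cntn1, Dpysl3, Efnb2, Plxna2, Robo2 and Sema3a were lost. Against shControl1, 16 of the 25 were kept, and those of Cntn1, Dcx, Epha3, Ncam1, Stmn1, Stmn3, Stmn4, Tubb3 and Unc5a were lost.

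In shAdar1 the calls went both ways. Against shControl1, 7 members were higher (9.33% of all genes) and 6 lower (6.90%), with a median of 0.08 against 0.02 over all genes. Against shControl2, 10 were higher (19.3%) and 7 lower (13.9%), with a median of 0.12 against 0.03. These medians rested on single samples: without shAdar1 replicate 1 they were −0.11 and −0.014, and without shAdar1 replicate 2 they were 0.20 and 0.22. Leaving out 1 library moved the count of 13 called against shControl1 to 5 (without shControl1 replicate 2), 8 (without shAdar1 replicate 1) or 7 (without shAdar1 replicate 2), and the count of 17 against shControl2 to 9 (without shControl2 replicate 2).

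The control hairpins differed in 26 of the 43 members, 13 lower in shControl2 than in shControl1 (23.2% of all genes) and 13 higher (19.9%). A call against 1 control hairpin alone therefore often rests on which hairpin was taken. Calls in the same direction against both are the ones described in full below. In each of them the 2 knockdown samples lay outside the range of the 4 control samples. That held too for every other pathway gene and marker called in this way, so it adds no support for the members. There were 15 members lower in shAdar2 than in both controls (15.9% of all genes) and 2 higher (15.2%). For shZfr there were 2 lower (7.85%) and 5 higher (7.95%), and for shAdar1 2 lower (1.99%) and 2 higher (1.85%). The count of lower members in shAdar2 was above what the share over all genes would give and that of higher members below it, while the counts in shZfr were near it. These shares were not matched for transcript length, and the members are long, as given below. With the control hairpins pooled to 1 group, the 17 members called in shAdar2 against both were called too, those in shAdar1 were not (edgeR adjusted p from 0.11 to 0.21), and of the 7 in shZfr those of Epha3 (0.070) and Tubb3 (0.072) were lost. The comparisons of 1 knockdown with the 2 controls share the knockdown samples, and those of different knockdowns share the controls.

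**Figure D2:**
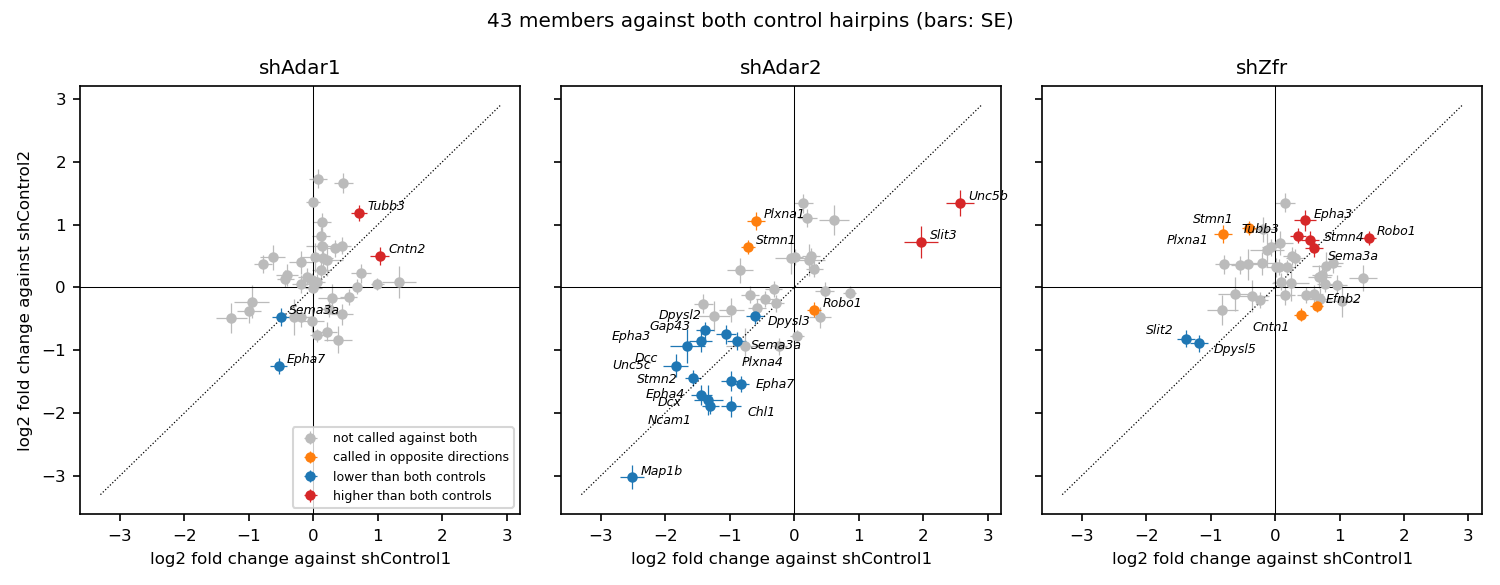
Log2 fold change of each of the 43 members against shControl1 (horizontal axis) and shControl2 (vertical axis) in shAdar1, shAdar2 and shZfr, with bars of 1 SE. Blue and red points are members lower or higher than both controls, orange points those called in opposite directions, and Map1b in shAdar2 lies lowest in both directions.

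The stathmins, small proteins that bind tubulin and favour disassembly of microtubules, split in shAdar2. Stmn2, the neuronal stathmin of growth cones, was at 1120.3 and 1083 CPM in shControl1, 1042 and 964 in shControl2, 1194 and 981 in shAdar1, 349.8 and 391 in shAdar2 and 1247 and 1259.6 in shZfr. The shAdar2 samples lay far below the other 8, of which shZfr was highest. Stmn2 fell in shAdar2 to 33.6% of shControl1 (log2 −1.57 ± 0.12 SE, edgeR adjusted p = 3.0e-05) and to 36.9% of shControl2 (log2 −1.44 ± 0.12 SE, edgeR adjusted p = 1.9e-05).

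Stmn1, the most abundant member per transcript length (4731 TPM in shControl1), was at 1398 and 1513 CPM in shControl1, 585 and 551 in shControl2, 1555 and 1352 in shAdar1, 875 and 899.5 in shAdar2 and 1091 and 1103 in shZfr. It was low in shControl2 and high in shControl1 and shAdar1, and shAdar2 and shZfr lay between the controls. Relative to shControl1 it fell in shAdar2 (log2 −0.71) and shZfr (log2 −0.41), and relative to shControl2 it rose in both (log2 0.64 and log2 0.95) and in shAdar1 (log2 1.36). Stmn3 followed the same hairpin difference: it was lower in shControl2 than in shControl1 (log2 −0.90 ± 0.14 SE), higher than shControl2 in shAdar1 (log2 1.04) and shAdar2 (log2 1.11), and lower than shControl1 in shZfr (log2 −0.54).

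Stmn4 was at 235 and 199.5 CPM in shControl1, 203 and 168 in shControl2, 323 and 265 in shAdar1, 279 and 244 in shAdar2 and 311 and 318 in shZfr. All 3 knockdowns lay above the 4 control samples. In shZfr it rose over shControl1 (log2 0.54 ± 0.14 SE, edgeR adjusted p = 0.012) and over shControl2 (log2 0.76 ± 0.14 SE, edgeR adjusted p = 0.0035). With the shZfr samples summed to 1 the call against shControl1 was lost (edgeR adjusted p = 0.052), as it was without shZfr replicate 1 (0.053), shZfr replicate 2 (0.067) or shControl1 replicate 2 (0.088). In shAdar1 and shAdar2 it was called against shControl2 alone (log2 0.67 and log2 0.50).

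Gap43, a membrane phosphoprotein of growth cones, fell in shAdar2 to 38.3% of shControl1 (log2 −1.38 ± 0.14 SE, edgeR adjusted p = 9.0e-05) and 62.4% of shControl2 (log2 −0.68 ± 0.14 SE, edgeR adjusted p = 0.002). Its level there was 223 and 232 CPM, below the range of the other 8 samples. Basp1, which shares its place at the membrane, was called in none of the 10 comparisons made between groups, and its levels ran from 687 CPM in shAdar2 replicate 2 to 1025 CPM in shAdar1 replicate 1.

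The CRMP genes did not move as 1 family. Dpysl2, which encodes CRMP2, a tubulin-binding protein needed for axon extension and for the response to semaphorin 3A, fell in shAdar2 to 48.1% of shControl1 (log2 −1.06 ± 0.15 SE, edgeR adjusted p = 0.0006) and 59.8% of shControl2 (log2 −0.74 ± 0.15 SE, edgeR adjusted p = 0.0023). Dpysl3 (CRMP4) fell less, with log2 −0.61 ± 0.14 SE and log2 −0.45 ± 0.14 SE. Its call against shControl2 (edgeR adjusted p = 0.019) was lost without shControl2 replicate 1 (0.059), without shControl2 replicate 2 (0.059), without shAdar2 replicate 1 (0.084) and with technical library 2 alone as that replicate (0.12).

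Dpysl5 (CRMP5) stood apart in shZfr. It was at 778 and 785 CPM in shControl1, 695 and 585 in shControl2, 1091 and 881 in shAdar1, 655 and 602 in shAdar2 and 353 and 337 in shZfr, and the shZfr samples lay below the other 8. Dpysl5 fell in shZfr to 53.9% of shControl2 (log2 −0.89 ± 0.13 SE, edgeR adjusted p = 0.0011) and 44.2% of shControl1 (log2 −1.18 ± 0.13 SE, edgeR adjusted p = 0.00013). Both calls held with the shZfr samples summed (edgeR adjusted p = 0.017 and 0.0031). In shAdar2 it was not called against either control (log2 −0.31 and log2 −0.03).

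Crmp1 moved with the control hairpin. It was at 842 and 894 CPM in shControl1, 431 and 326 in shControl2, 1333 and 1070.2 in shAdar1, 968 and 952 in shAdar2 and 956 and 979 in shZfr. The shControl2 samples were lowest, at 43.6% of shControl1 (log2 −1.20 ± 0.15 SE, edgeR adjusted p = 0.0003), and all 3 knockdowns were higher than shControl2 (log2 1.67 in shAdar1, log2 1.34 in shAdar2 and log2 1.35 in shZfr). None of the 3 was called against shControl1 (log2 0.47, log2 0.14 and log2 0.16).

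Map1b fell the furthest of the 43 members. It encodes a microtubule-associated protein of growing axons and was the second most abundant member per transcript length in shControl1 (2391 TPM). It was at 9456 and 10667 CPM in shControl1, 14068 and 14653 in shControl2, 11551 and 8372 in shAdar1, 1639.8 and 1888 in shAdar2 and 16217 and 16203 in shZfr. The shAdar2 samples lay below every other sample and did not approach their range. Map1b fell in shAdar2 to 17.5% of shControl1 (log2 −2.51 ± 0.19 SE, edgeR adjusted p = 2.3e-05) and 12.3% of shControl2 (log2 −3.03 ± 0.19 SE, edgeR adjusted p = 5.3e-06). In shAdar1 it was not called against shControl1 (log2 −0.01 ± 0.18 SE) and was lower than shControl2 (log2 −0.53 ± 0.18 SE), and in shZfr it was higher than shControl1 alone (log2 0.69 ± 0.18 SE).

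Doublecortin, encoded by Dcx, binds microtubules in migrating and growing neurons. It was at 2124 and 1831 CPM in shControl1, 2687 and 2758 in shControl2, 2579 and 2265 in shAdar1, 565 and 1008 in shAdar2 and 3383 and 3487 in shZfr. The shAdar2 samples were the lowest 2, although they differed from each other more than most pairs. Dcx fell to 39.8% of shControl1 (log2 −1.33 ± 0.23 SE, edgeR adjusted p = 0.0015) and 28.9% of shControl2 (log2 −1.79 ± 0.23 SE, edgeR adjusted p = 0.00017).

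Tubb3, the neuronal beta tubulin, did not follow Map1b and Dcx. It was at 599 and 597 CPM in shControl1, 462 and 399 in shControl2, 1075 and 879 in shAdar1, 623 and 585 in shAdar2 and 749 and 779 in shZfr. The shAdar1 samples were the highest 2, shZfr came next, and shAdar2 overlapped shControl1. Tubb3 rose in shAdar1 over shControl1 (log2 0.71 ± 0.12 SE, edgeR adjusted p = 0.0062) and shControl2 (log2 1.18 ± 0.12 SE, edgeR adjusted p = 0.00032). In shZfr it rose by log2 0.35 ± 0.12 SE, edgeR adjusted p = 0.04 over shControl1 and by log2 0.83 ± 0.12 SE, edgeR adjusted p = 0.0012 over shControl2. The former call was lost with the shZfr samples summed (0.12), without either shZfr sample (0.11 and 0.18) and without shControl1 replicate 1 (0.11) or replicate 2 (0.12), and with technical library 2 alone as shAdar2 replicate 1 (0.10).

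Over the 13 growth cone and cytoskeleton members, 6 were lower in shAdar2 than in both controls (15.9% of all genes), none was higher than both (15.2%), and Stmn1 was called in opposite directions. In shZfr 2 were higher (7.95%) and 1 lower (7.85%) than both controls, and in shAdar1 1 was higher (1.85%).

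**Figure D3:**
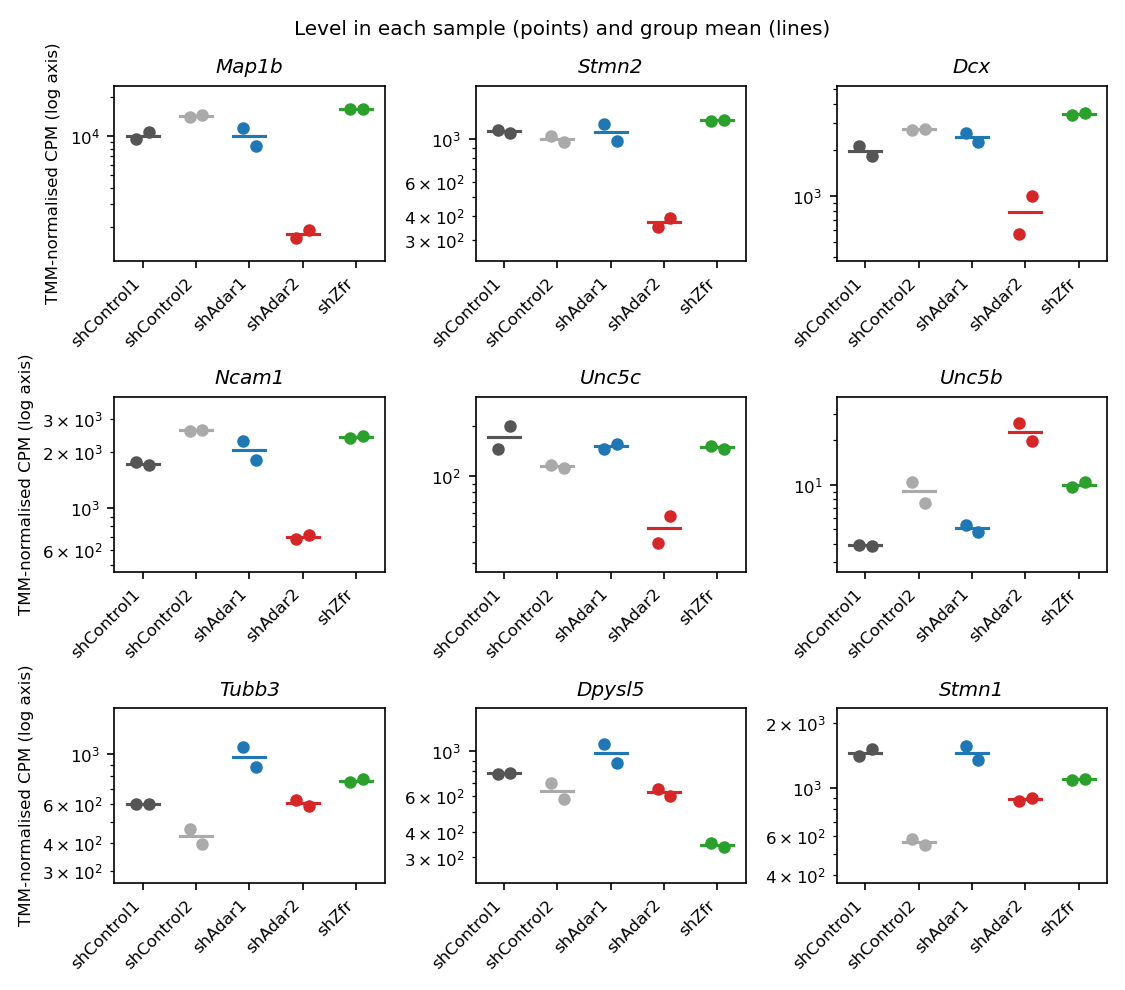
TMM-normalised CPM (log axis) of 9 members in each sample (points) with the mean of each group (lines). Map1b, Stmn2, Dcx, Ncam1 and Unc5c are lowest and Unc5b is highest in the 2 shAdar2 samples, Tubb3 is highest in shAdar1, Dpysl5 is lowest in shZfr and Stmn1 is lowest in shControl2.

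Among the 7 adhesion molecules, 2 fell in shAdar2 against both controls (15.9% of all genes). Ncam1, the neural cell adhesion molecule, was at 1769 and 1701 CPM in shControl1, 2592 and 2624 in shControl2, 2295 and 1821 in shAdar1, 686 and 723 in shAdar2 and 2378 and 2444 in shZfr. The shAdar2 samples lay below all others and close to each other. Ncam1 fell to 40.6% of shControl1 (log2 −1.30 ± 0.13 SE, edgeR adjusted p = 9.2e-05) and 27% of shControl2 (log2 −1.89 ± 0.13 SE, edgeR adjusted p = 7.8e-06).

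Chl1, a close homolog of L1 that supports neurite growth and survival, was at 1639 and 1507 CPM in shControl1, 2716 and 3207 in shControl2, 1974 and 1665 in shAdar1, 695 and 900.0 in shAdar2 and 3007 and 3113 in shZfr. The control hairpins did not overlap, and shAdar2 lay below both. It fell to 50.7% of shControl1 (log2 −0.98 ± 0.16 SE, edgeR adjusted p = 0.001) and 26.9% of shControl2 (log2 −1.89 ± 0.16 SE, edgeR adjusted p = 1.8e-05). Between the controls it was higher in shControl2 (log2 0.91 ± 0.16 SE, edgeR adjusted p = 0.0015).

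L1cam itself was called in none of the 10 comparisons, with, in shAdar2, log2 0.31 ± 0.13 SE and log2 0.30 ± 0.13 SE. Ncam2 was lower than shControl1 in shAdar1 (log2 −1.27) and shAdar2 (log2 −1.24) but was not called against shControl2 in either (log2 −0.48 and log2 −0.46). Its shControl1 samples lay apart from each other, at 189 and 305 CPM.

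The contactins are membrane-anchored adhesion molecules of axons. Cntn2, also called TAG-1, was at 56.3 and 40.6 CPM in shControl1, 72.4 and 67.3 in shControl2, 106 and 91.8 in shAdar1, 68.8 and 65.3 in shAdar2 and 77.5 and 83.2 in shZfr. The shAdar1 samples were the highest 2. Cntn2 rose in shAdar1 over shControl1 (log2 1.03 ± 0.15 SE, edgeR adjusted p = 0.003) and over shControl2 (log2 0.50 ± 0.15 SE, edgeR adjusted p = 0.029). The latter call was lost with DESeq2's size factors in edgeR (0.052), with the shZfr samples summed (0.071), and without shControl2 replicate 1 (0.10), shControl2 replicate 2 (0.22), shAdar1 replicate 1 (0.21), shZfr replicate 1 (0.070) or shZfr replicate 2 (0.071).

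Cntn1 was higher in shControl2 than in every other group, at 954 and 981 CPM against 553 and 536 in shControl1, and in shZfr it was higher than shControl1 (log2 0.40 ± 0.11 SE) and lower than shControl2 (log2 −0.43 ± 0.11 SE). Cntn4, at 6.39 to 13.1 CPM, was called in 1 of the 10 comparisons, lower in shZfr than in shAdar1 (log2 −0.76 ± 0.26 SE).

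The netrin receptors gave both directions in shAdar2. DCC mediates attraction to netrin, and UNC5 receptors mediate repulsion and can signal cell death when netrin is absent. Unc5c was at 145 and 199.8 CPM in shControl1, 117 and 111 in shControl2, 145 and 157 in shAdar1, 39.5 and 57.5 in shAdar2 and 153 and 146 in shZfr. The shAdar2 samples were the lowest 2, and shControl2 was lower than shControl1 (log2 −0.59 ± 0.18 SE). Unc5c fell in shAdar2 to 28% of shControl1 (log2 −1.84 ± 0.19 SE, edgeR adjusted p = 0.00011) and 42.3% of shControl2 (log2 −1.24 ± 0.19 SE, edgeR adjusted p = 0.00041). Its promoter is the one shown above without a motif.

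Unc5b, the least abundant member in shControl1 (1.90 TPM), went the other way. It was at 3.92 and 3.86 CPM in shControl1, 10.5 and 7.58 in shControl2, 5.33 and 4.83 in shAdar1, 26.3 and 19.7 in shAdar2 and 9.61 and 10.5 in shZfr. The shAdar2 samples were the highest 2, shControl1 and shAdar1 the lowest, and shControl2 and shZfr lay between. It rose in shAdar2 by log2 2.57 ± 0.22 SE, edgeR adjusted p = 4.3e-05 over shControl1 and by log2 1.35 ± 0.21 SE, edgeR adjusted p = 0.00046 over shControl2. It was also higher in shControl2 than in shControl1 (log2 1.22 ± 0.22 SE, edgeR adjusted p = 0.0018).

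Dcc was lower in shAdar2 than in both controls (log2 −1.66 ± 0.27 SE, edgeR adjusted p = 0.0012 for shControl1, log2 −0.93 ± 0.27 SE, edgeR adjusted p = 0.014 for shControl2). Its shControl1 samples lay apart, at 221 and 441 CPM, while shControl2 gave 191 and 208 and shAdar2 120.3 and 88.8. The call against shControl2 was lost without shControl2 replicate 2 (edgeR adjusted p = 0.070) and without shAdar2 replicate 2 (0.063). Unc5a was higher in shAdar2 than in shControl2 (log2 1.07 ± 0.23 SE) and not called against shControl1 (log2 0.62 ± 0.23 SE), and in shZfr it was lower than shControl1 (log2 −0.82 ± 0.24 SE). Unc5d was lower in shAdar2 than in shControl1 (log2 −0.45 ± 0.13 SE) and not called against shControl2 (log2 −0.18 ± 0.13 SE). No netrin receptor was called in the same direction against both controls in shAdar1 or shZfr.

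Slits are secreted repellents, and Robo receptors read them. In shZfr the receptor Robo1 rose and the ligand Slit2 fell. Robo1 was at 197 and 185 CPM in shControl1, 311 and 292 in shControl2, 327 and 283 in shAdar1, 256 and 217 in shAdar2 and 515 and 530.4 in shZfr. The shZfr samples were well above the other 8, and shControl1 was lowest. Robo1 rose in shZfr over shControl2 (log2 0.79 ± 0.11 SE, edgeR adjusted p = 0.00097) and over shControl1 (log2 1.45 ± 0.12 SE, edgeR adjusted p = 2.5e-05), and both calls held with the shZfr samples summed (0.013 and 0.00050). In shAdar2 it lay between the controls, higher than shControl1 (log2 0.31) and lower than shControl2 (log2 −0.35).

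Slit2 was at 109 and 144 CPM in shControl1, 86.5 and 83.7 in shControl2, 92.7 and 94.9 in shAdar1, 84.3 and 72.7 in shAdar2 and 48.6 and 48.3 in shZfr. The shZfr samples were the lowest 2. It fell in shZfr to 56.9% of shControl2 (log2 −0.81 ± 0.14 SE, edgeR adjusted p = 0.0021) and 38.3% of shControl1 (log2 −1.38 ± 0.14 SE, edgeR adjusted p = 6.4e-05), and both calls held with the samples summed (0.027 and 0.0017).

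Slit3 rose in shAdar2. It was at 14.3 and 8.28 CPM in shControl1, 28.8 and 24.6 in shControl2, 33.4 and 23.2 in shAdar1, 48.9 and 39.2 in shAdar2 and 22.2 and 24.0 in shZfr. The shAdar2 samples were the highest 2, and shControl1 was the lowest group. The rise was log2 1.97 ± 0.26 SE, edgeR adjusted p = 0.00038 over shControl1 and log2 0.73 ± 0.25 SE, edgeR adjusted p = 0.033 over shControl2. The latter call was lost with the shZfr samples summed (0.057), and without shControl2 replicate 1 (0.082), shControl2 replicate 2 (0.19), shAdar2 replicate 1 (0.14), shZfr replicate 1 (0.056) or shZfr replicate 2 (0.057), and with technical library 1 alone as shAdar2 replicate 1 (0.10). Slit3 was higher in shControl2 than in shControl1 (log2 1.25 ± 0.26 SE, edgeR adjusted p = 0.0043).

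Robo2 was lower than shControl1 in shAdar1 (log2 −0.99 ± 0.19 SE) and shAdar2 (log2 −0.98 ± 0.19 SE), not called against shControl2 in either, and higher than shControl2 in shZfr (log2 0.70 ± 0.19 SE). Slit1 was called in none of the 10 comparisons, with levels of 53.7 to 105.7 CPM.

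Sema3a, a secreted repellent of cortical axons, was called against both controls in all 3 knockdowns and not in 1 direction. It was at 86.2 and 103 CPM in shControl1, 86.3 and 98.3 in shControl2, 66.4 and 66.9 in shAdar1, 44.1 and 58.2 in shAdar2 and 142 and 145 in shZfr. The 4 control samples overlapped from hairpin to hairpin, shAdar1 and shAdar2 lay below them and shZfr above. Sema3a fell in shAdar2 to 53.9% of shControl1 (log2 −0.89 ± 0.14 SE, edgeR adjusted p = 0.001) and 55.2% of shControl2 (log2 −0.86 ± 0.14 SE, edgeR adjusted p = 0.00074). It rose in shZfr over shControl2 (log2 0.63 ± 0.14 SE, edgeR adjusted p = 0.0091) and shControl1 (log2 0.60 ± 0.14 SE, edgeR adjusted p = 0.0071). With the shZfr samples summed, the call against shControl2 was lost (0.052), as it was without shControl2 replicate 1 (0.073), shZfr replicate 1 (0.052) or shZfr replicate 2 (0.066), and the call against shControl1 was lost without shControl1 replicate 1 (0.057).

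In shAdar1 the fall of Sema3a was smaller, log2 −0.50 ± 0.14 SE, edgeR adjusted p = 0.042 against shControl1 and log2 −0.47 ± 0.14 SE, edgeR adjusted p = 0.031 against shControl2. The Sema3a call against shControl1 was lost in each refit without 1 sample of shControl1, shControl2, shAdar1 or shZfr (0.050 to 0.24) and with the shZfr samples summed (0.069), and that against shControl2 without shControl2 replicate 2 (0.16), shAdar1 replicate 1 (0.085) or shAdar1 replicate 2 (0.11). With technical library 3 alone as shAdar2 replicate 1, both were lost (0.14 and 0.11).

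Plxna4, a plexin through which semaphorin 3A signals, was at 363 and 367 CPM in shControl1, 538 and 507 in shControl2, 690.3 and 529 in shAdar1, 159 and 214 in shAdar2 and 677 and 685 in shZfr. The shAdar2 samples were the lowest 2. It fell in shAdar2 to 51% of shControl1 (log2 −0.97 ± 0.16 SE, edgeR adjusted p = 0.0012) and 35.6% of shControl2 (log2 −1.49 ± 0.16 SE, edgeR adjusted p = 6.4e-05).

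Plxna1 differed most between the control hairpins. It was at 393 and 415 CPM in shControl1, 141 and 115 in shControl2, 457 and 397 in shAdar1, 236 and 299 in shAdar2 and 233 and 230.5 in shZfr. The shControl2 samples were the lowest 2, and shControl1 and shAdar1 the highest groups. It was lower in shControl2 than in shControl1 (log2 −1.66 ± 0.14 SE, edgeR adjusted p = 5.6e-05), so that shAdar2 and shZfr were lower than shControl1 (log2 −0.60 and log2 −0.80) and higher than shControl2 (log2 1.06 and log2 0.85).

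Sema3c, a semaphorin that can attract cortical axons, was at 70.2 and 93.0 CPM in shControl1, 38.2 and 35.2 in shControl2, 49.2 and 45.8 in shAdar1, 32.4 and 29.0 in shAdar2 and 44.7 and 50.0 in shZfr. The shControl1 samples were the highest 2. Sema3c was lower in shControl2 (log2 −1.15 ± 0.15 SE, edgeR adjusted p = 0.0003) and in all 3 knockdowns than in shControl1 (log2 −0.78 in shAdar1, log2 −1.41 in shAdar2 and log2 −0.78 in shZfr), and no knockdown was called against shControl2.

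Plxna2 was lower in shAdar2 than in shControl1 (log2 −0.57 ± 0.14 SE) and higher in shZfr than in shControl2 (log2 0.50 ± 0.14 SE). The neuropilins are the ligand-binding partners of plexins. Nrp1 was lower in shAdar2 than in shControl2 (log2 −0.94 ± 0.29 SE) and not called against shControl1 (log2 −0.77 ± 0.29 SE). Nrp2 was higher in shControl2 than in shControl1 (log2 0.87 ± 0.17 SE), lower than shControl2 in shAdar2 (log2 −0.48 ± 0.17 SE) and higher than shControl1 in shZfr (log2 0.69 ± 0.17 SE).

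Eph receptors are receptor tyrosine kinases that read membrane-bound ephrins, and 3 of the 4 EphA receptors in the set were lower in shAdar2 than in both controls (15.9% of all genes). Epha4 was at 256 and 262 CPM in shControl1, 314 and 312 in shControl2, 258 and 194 in shAdar1, 82.4 and 109 in shAdar2 and 283 and 293 in shZfr. The shAdar2 samples were the lowest 2. It fell to 36.9% of shControl1 (log2 −1.44 ± 0.16 SE, edgeR adjusted p = 0.00014) and 30.5% of shControl2 (log2 −1.71 ± 0.16 SE, edgeR adjusted p = 2.9e-05).

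Epha3 moved down in shAdar2 and up in shZfr. It was at 63.4 and 88.8 CPM in shControl1, 51.2 and 49.3 in shControl2, 59.5 and 55.6 in shAdar1, 24.2 and 32.0 in shAdar2 and 104 and 107 in shZfr. The shAdar2 samples lay below the other 8, and the shZfr samples above them. In shAdar2 it fell by log2 −1.45 ± 0.17 SE, edgeR adjusted p = 0.00022 against shControl1 and by log2 −0.85 ± 0.17 SE, edgeR adjusted p = 0.0023 against shControl2. In shZfr it rose by log2 1.07 ± 0.17 SE, edgeR adjusted p = 0.0017 over shControl2 and by log2 0.47 ± 0.17 SE, edgeR adjusted p = 0.046 over shControl1. The call in shZfr against shControl1 was lost with the samples summed (0.12), without shControl1 replicate 1 (0.28) and without either shZfr sample (0.12 and 0.16), and, with the value between 0.053 and 0.062, without any 1 sample of shControl2 or shAdar1 or with technical library 1 alone as shAdar2 replicate 1.

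Epha7 was at 147 and 181 CPM in shControl1, 245 and 294 in shControl2, 116 and 110.3 in shAdar1, 96.0 and 89.0 in shAdar2 and 276 and 284 in shZfr. Both shAdar1 and shAdar2 lay below the 4 control samples, and shZfr shared the range of shControl2. Epha7 fell in shAdar2 to 56.4% of shControl1 (log2 −0.83 ± 0.13 SE, edgeR adjusted p = 0.0008) and 34.3% of shControl2 (log2 −1.54 ± 0.13 SE, edgeR adjusted p = 1.6e-05). In shAdar1 it fell to 68.9% of shControl1 (log2 −0.54 ± 0.13 SE, edgeR adjusted p = 0.021) and 41.9% of shControl2 (log2 −1.25 ± 0.13 SE, edgeR adjusted p = 0.0003). The Epha7 call in shAdar1 against shControl1 was lost without shControl1 replicate 2 (0.15), shAdar1 replicate 1 (0.063) or shAdar1 replicate 2 (0.11).

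Epha5 was lower in shAdar2 than in shControl2 (log2 −0.94 ± 0.13 SE) and not called against shControl1 (log2 −0.23 ± 0.13 SE). The ephrin ligands followed the control hairpins. Efnb2 was at 114 and 132 CPM in shControl1, 236 and 237 in shControl2, 243 and 247 in shAdar1, 213 and 234 in shAdar2 and 192 and 194 in shZfr. The shControl1 samples were the lowest 2, and the other groups lay between 192 and 247 CPM. It was higher in shControl2 than in shControl1 (log2 0.94 ± 0.10 SE, edgeR adjusted p = 0.00013), and shZfr was higher than shControl1 (log2 0.65) and lower than shControl2 (log2 −0.29). Efna5 was lower in shControl2 than in shControl1 (log2 −1.11 ± 0.20 SE), lower than shControl1 in shAdar2 (log2 −0.84 ± 0.20 SE) and higher than shControl2 in shZfr (log2 0.92 ± 0.20 SE).

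The knockdowns were also compared with each other, with the controls entering only the shared filter, scaling and spread. In shAdar2, 20 members were lower than in shAdar1 (21.0% of all genes) and 1, Unc5b, was higher (17.0%), with a median log2 fold change of −0.39 against 0.01 over all genes. Relative to shZfr, 27 members were lower in shAdar2 (28.6%) and 6 higher (31.8%), with a median of −0.65 against 0.10. In shZfr, 12 members were higher than in shAdar1 (18.4%) and 9 lower (20.9%), with a median of 0.15 against −0.05. The last count of 21 became 10 with the shZfr samples summed or with either left out, and the last median was 0.28 without shAdar1 replicate 1 and 0.017 without shAdar1 replicate 2. Map1b differed by log2 −2.50 ± 0.19 SE between shAdar2 and shAdar1 and by log2 −3.20 ± 0.19 SE between shAdar2 and shZfr. Sema3a was higher in shZfr than in shAdar1 (log2 1.1 ± 0.14 SE) and lower in shAdar2 than in shZfr (log2 −1.49 ± 0.15 SE), and it was not called between shAdar2 and shAdar1 (log2 −0.39 ± 0.14 SE).

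A group can also be read against each of the other 4. In shAdar2, 12 members were lower than in each of the other 4 groups (11.3% of all genes): Map1b, Stmn2, Gap43, Dpysl2, Dpysl3, Dcx, Ncam1, Chl1, Unc5c, Plxna4, Epha3 and Epha4. Unc5b was higher there than in each of the others (8.93%). In shZfr, Dpysl5 and Slit2 were lower than in each other group (5.38%) and Robo1, Sema3a and Epha3 higher (5.42%). In shAdar1, Tubb3 was higher (0.318%), and no member was lower (0.264%). In shControl1, Cntn2, Efnb2, Robo1 and Slit3 were lower (2.95%) and Sema3c higher (1.86%), and in shControl2, Stmn1, Crmp1, Tubb3 and Plxna1 were lower (4.58%) and Cntn1 higher (2.69%). With the shZfr samples summed, Robo1, Dpysl5 and Slit2 still stood apart in shZfr, and Sema3a and Epha3 there, Tubb3 in shAdar1, Cntn2 and Robo1 in shControl1 and Cntn1 in shControl2 did not. The members Basp1, L1cam and Slit1 were called in none of the 10 comparisons.

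Transcript length ran with some of these differences. The members are long, with a median length of 5418 bases against 2882 over all genes tested, and the difference between the control hairpins rose with length (Spearman's rho 0.38 across genes, which are not independent). In shAdar2 minus shControl2 the median of all genes went from 0.75 for transcripts of up to 1500 bases to −0.42 for those over 6000 bases, and in shAdar2 minus shControl1 from 0.09 to −0.17. Of 18 members over 6000 bases, 14 were lower in shAdar2 than in shControl1, where 36.1% of all genes of that length were, and 12 were lower than in shControl2, where 51.7% were. Taking off the median of all genes of the same length class left all 15 members that were lower than both controls below 0 in both comparisons, Map1b at −2.34 and −2.61 and the smallest at −0.59 and −0.23. The 15 members were picked for being lower in these same comparisons, so this could hardly have come out otherwise. The length class was chosen after the data were seen, and this value carries no test. What part length had in the falls was not tested.

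**Figure D4:**
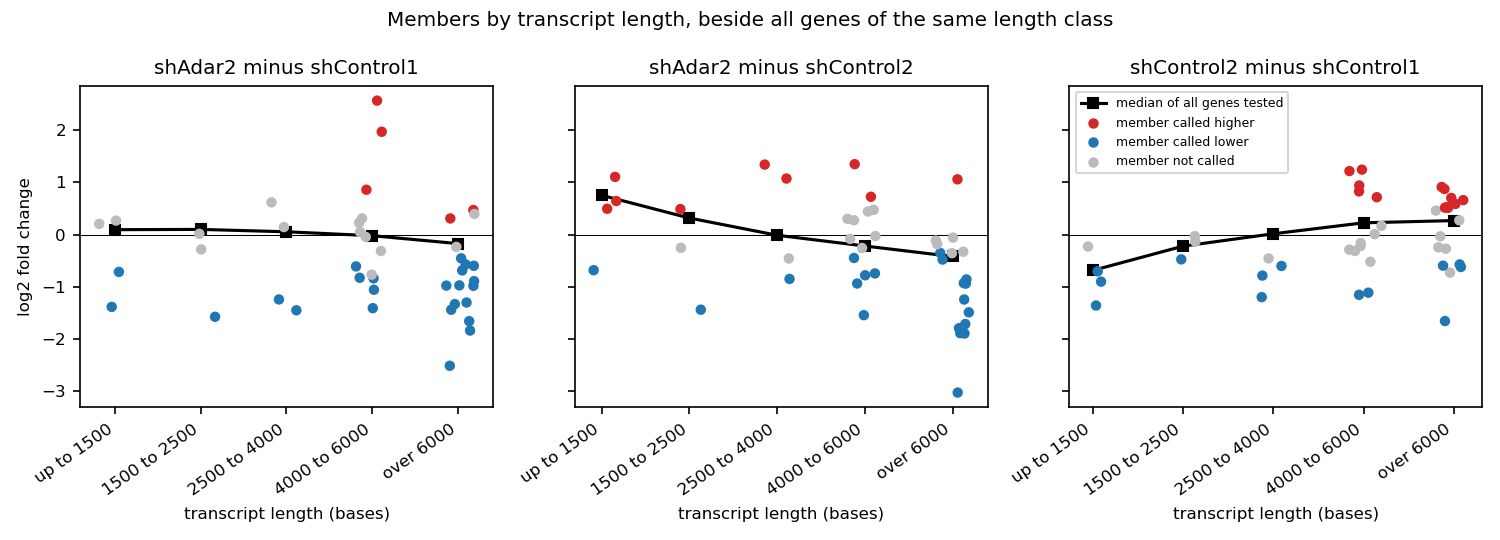
Log2 fold change of the members (points) by class of transcript length in bases, beside the median of all genes tested in the class (black squares), for shAdar2 against each control and for shControl2 against shControl1. The black line falls with length in shAdar2 minus shControl2 and rises in shControl2 minus shControl1, and the members over 6000 bases in shAdar2 lie mostly below it.

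Other genes of the same pathways were taken from a list of 118, of which 116 were tested. In shAdar2, 28 of the 116 were lower than in shControl1 (23.2% of all genes) and 35 higher (23.2%), and 42 were lower than in shControl2 (27.3%) and 31 higher (32.2%). Against both controls 21 were lower (15.9%) and 16 higher (15.2%) in shAdar2, 16 lower (7.85%) and 20 higher (7.95%) in shZfr, and 3 lower (1.99%) and 7 higher (1.85%) in shAdar1. The 21 and 16 in shAdar2 were near the shares over all genes (15.9% and 15.2%). By list, the counts lower and higher than both controls there were 9 and 2 of 27 growth cone and cytoskeleton genes. They were 3 and 2 of 16 adhesion genes, 1 and 0 of 11 netrin genes, and 3 and 0 of 6 Slit and Robo genes. Of 25 semaphorin and plexin genes they were 2 and 4, of 16 Eph and ephrin genes 0 and 3, and of 15 outgrowth receptors 3 and 5.

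Genes of this list that were called against both controls without overlap were ranked by the smaller of their 2 changes. By that order Cadm2, Flrt2 and Marcks came first of those that fell in shAdar2. Cadm2, an adhesion molecule of axons, was at 138 and 144 CPM in shAdar2, 586 and 669 in shControl1 and 733 and 881 in shControl2 (log2 −2.15 ± 0.16 SE and log2 −2.51 ± 0.16 SE). Flrt2, a membrane protein that binds UNC5 receptors, was at 57.1 and 61.2 CPM against 218 and 237 and 201 and 226 (log2 −1.94 ± 0.10 SE and log2 −1.85 ± 0.10 SE). Marcks, a membrane protein that binds actin and shares that place with GAP-43, was at 259 and 285 CPM against 825 and 668 and 1116 and 1159 (log2 −1.46 ± 0.12 SE and log2 −2.07 ± 0.12 SE). For all 3 the shAdar2 samples lay below the 4 controls.

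Of those that rose in shAdar2, Epha2, Mcam and Sema4f came first by the same order. Epha2 was at 3.05 and 3.00 CPM against 0.42 and 0.71 in shControl1 (log2 2.40 ± 0.42 SE), and shControl2, at 0.14 and 0.18 CPM, held too few counts for a fold change to be given. Mcam, an adhesion molecule better known from vessels, was at 7.84 and 17.3 CPM in shAdar2, 12.8 and 15.5 in shZfr, 2.92 and 3.93 in shControl1 and 3.34 and 2.24 in shControl2. Sema4f, a membrane-bound semaphorin, was at 107 and 65.3 CPM against 37.8 and 38.4 and 46.8 and 41.2 (log2 1.18 ± 0.20 SE and log2 0.97 ± 0.20 SE). The markers of vessels and fibroblasts summed to 23.0 to 26.3 TPM in shAdar2, 10.5 to 10.8 in shZfr, 9.76 to 13 in shControl1 and 44.2 to 50.5 in shControl2. The Mcam call in shAdar2 against shControl1 was lost without shControl1 replicate 1 (edgeR adjusted p = 0.071).

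In shZfr, Ephb1 rose and Rgma, Cntnap2 and Sema6b fell. Ephb1, an Eph receptor, was at 91.7 and 92.6 CPM against 20.4 and 19.8 in shControl1 and 34.0 and 34.7 in shControl2 (log2 2.20 ± 0.16 SE and log2 1.42 ± 0.15 SE). Rgma, a repulsive guidance molecule that binds neogenin, was at 28.2 and 23.0 CPM against 78.2 and 64.8 and 102 and 98.2 (log2 −1.48 ± 0.13 SE and log2 −1.97 ± 0.13 SE). Cntnap2, which holds potassium channels beside the node of Ranvier, was at 37.0 and 38.9 CPM against 132 and 154 and 93.0 and 90.0 (log2 −1.92 ± 0.15 SE and log2 −1.27 ± 0.14 SE). Sema6b, a membrane-bound semaphorin, fell from 70.8 and 70.2 and 47.8 and 39.1 CPM to 18.2 and 19.0 (log2 −1.92 ± 0.21 SE and log2 −1.22 ± 0.21 SE). Mcam and Ephb4 also rose there, Mcam by log2 2.04 ± 0.46 SE and log2 2.34 ± 0.48 SE and Ephb4, at 10.4 and 9.90 CPM, by log2 1.83 ± 0.42 SE and log2 1.27 ± 0.42 SE. With the shZfr samples summed, the call of Ephb4 against shControl2 was lost (edgeR adjusted p = 0.13) and the other 11 calls of these 6 genes held. The Ephb4 call was also lost without any 1 sample of shControl1, shControl2 or shZfr (0.065 to 0.19) and with technical library 3 alone as shAdar2 replicate 1 (0.054), and that of Mcam against shControl2 without shControl2 replicate 2 (0.060).

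In shAdar1, the tubulin genes Tubb2b and Tuba1a and the semaphorin gene Sema4c rose, and Ret, Nefm and Cadm2 fell. Tubb2b was at 3479.9 and 2793 CPM against 2121 and 1986 in shControl1 and 1537 and 1407 in shControl2 (log2 0.61 ± 0.14 SE and log2 1.09 ± 0.14 SE), and Tuba1a at 5517 and 4255 CPM against 3199 and 3212 and 2656 and 2274 (log2 0.61 ± 0.15 SE and log2 0.99 ± 0.15 SE). Reads of near-identical tubulin genes are shared out by estimation, so the split between them is uncertain. Sema4c rose by log2 1.05 ± 0.11 SE and log2 0.66 ± 0.11 SE. Ret, a receptor for neurotrophic factors of the GDNF family, fell to 4.78 and 3.43 CPM from 9.49 and 8.28 and 14.4 and 18.0 (log2 −1.12 ± 0.24 SE and log2 −1.98 ± 0.24 SE). Nefm, a neurofilament subunit, fell by log2 −1.04 ± 0.28 SE and log2 −1.52 ± 0.29 SE, and Cadm2 by log2 −0.64 ± 0.15 SE and log2 −1.01 ± 0.16 SE. Of these 6 genes, Sema4c alone kept its call against shControl1 in each refit without 1 sample, while the calls of Tubb2b (edgeR adjusted p up to 0.098), Tuba1a (0.10), Ret (0.10), Nefm (0.26) and Cadm2 (0.14) were lost in 2 to 5 of the 10. In a fit of the compared groups alone, those of Tubb2b (0.11), Tuba1a (0.15), Nefm (0.071) and Cadm2 (0.056) were lost. With the controls pooled, none of the 6 was called (0.10 to 0.15).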

How the data were processed

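RNA of 12 libraries was measured after removal of ribosomal RNA, per the labels' protocols. Per the file headers, each deposited gene table holds RSEM's expected counts (reads assigned by estimation, without normalisation), TPM (scaled for transcript length and depth) and transcript lengths. RSEM 1.2.30, STAR 2.5.4b, DESeq2 1.20.0, Trim Galore 0.4.5, SAMtools 1.4 and the mm9 build stand in the submitters' processing notes, which give neither their role nor their order.

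The 3 technical libraries of shAdar2 replicate 1 were summed, which left 10 samples. Expected counts were rounded, filtered with filterByExpr (14785 of 23955 genes), scaled by TMM and fitted in edgeR 4.0.16 under R 4.3.3. The quasi-likelihood F test took all 10 samples, with 1 shared estimate of the spread and no replicate block. P-values were adjusted by Benjamini and Hochberg's method over all genes tested, and a gene was called under 0.05. CPM are counts scaled to TMM-adjusted library size. TPM were used to compare levels between genes, and only samples' own values were averaged. Each SE came from the log2 fold change and its F statistic. The test was also run on simulated counts of independent samples, drawn with the spread fitted to these data. Such counts cannot show how it behaves with samples as alike as the shZfr pair, and no result rests on them.

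Values in each sample were given for members called in the same direction against both controls without overlap (at most 8 per knockdown and direction), for the 4 largest differences in each direction between the controls, and, of other pathway genes, for at most 3 per knockdown and direction. The members, the 118 other pathway genes, the 9 marker lists and these rules were chosen with earlier results of these data known. Alternatives were DESeq2 1.42.0, its size factors, no filter, only the compared groups, both controls pooled, a replicate block, single technical libraries, Rn45s left out and each sample left out. The summed shZfr samples and the length classes were added after the data were seen. Editing tables were not used here, since their positions on mm9 could not be assigned to the members.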

Additional observations from a re-analysis of the deposited data

Results flagged for a closer look

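In 5 members the direction in a knockdown turned with the control hairpin, and both directions passed the test. The difference of the 2 effects is the difference between the controls, tested as shControl2 minus shControl1. Stmn1 differed by log2 −1.36 between the controls and had log2 −0.71 and 0.64 against shControl1 and shControl2 in shAdar2, and −0.41 and 0.95 in shZfr. Plxna1 differed by log2 −1.66 and had −0.60 and 1.06 in shAdar2, and −0.80 and 0.85 in shZfr. Robo1 differed by log2 0.66 and had 0.31 and −0.35 in shAdar2. In shZfr, Cntn1 had log2 0.40 and −0.43, with 0.83 between the controls, and Efnb2 had 0.65 and −0.29, with 0.94 between the controls. As above, both shZfr calls of Cntn1, that of Efnb2 against shControl2 and that of Stmn1 against shControl1 were lost with the shZfr samples summed.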

How the results depend on the processing

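With the control hairpins pooled to 1 group, whose own difference then enters the spread, edgeR called 0 members in shAdar1 (9 at an unadjusted p under 0.05, and 0.0338% of all genes called) in place of 13 and 17, 19 in shAdar2 (32.5% of all genes) in place of 29 and 29, and 5 in shZfr (Dpysl5, Robo1, Sema3a, Slit2 and Stmn4, 12.8% of all genes) in place of 17 and 25. The 19 in shAdar2 hold all 17 members called against both controls. Pooling also turned Plxna1 (log2 0.0065 in shAdar2, −0.20 in shZfr), Robo1 (−0.059 in shAdar2), Stmn1 (−0.19 in shAdar2, 0.12 in shZfr), Efnb2 (0.10) and Cntn1 (−0.077, both in shZfr). A fit of shZfr and shControl2 alone called 32 members in place of 17. The share of all genes called was not counted in this fit or with the shZfr samples summed. Those counts are therefore not set against it. With the shZfr samples summed, 11 members were called in shZfr against shControl2, 16 against shControl1, 10 against shAdar1 (in place of 21), 3 against both controls (in place of 7) and 2 in shAdar1 against both (in place of 4). The cause was not tested beyond the change in samples and spread that each fit makes.

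Leaving out 1 sample gave 5 to 17 members called in shAdar1 minus shControl1, 9 to 20 in shAdar1 minus shControl2, 24 to 33 in shAdar2 minus shControl1, 21 to 31 in shAdar2 minus shControl2, 9 to 21 in shZfr minus shControl2, 13 to 26 in shZfr minus shControl1, 18 to 29 in shControl2 minus shControl1, 19 to 25 in shAdar2 minus shAdar1, 26 to 34 in shAdar2 minus shZfr and 10 to 24 in shZfr minus shAdar1. Against both controls it gave 2 to 6 for shAdar1, 14 to 22 for shAdar2 and 3 to 8 for shZfr. The counts moved by over 1.5 times for shZfr minus shControl2 without shControl2 replicate 1 (10), shZfr replicate 1 (9) or replicate 2 (10), for shZfr minus shControl1 without shZfr replicate 1 (15) or replicate 2 (13), for shZfr against both without shControl1 replicate 1 (4) or either shZfr sample (3), and for shAdar1 against both without any 1 sample of shAdar1, shControl2 or shZfr (2). They did so too for shAdar1 minus shControl1 without shControl1 replicate 2 (5), shAdar1 replicate 1 (8) or replicate 2 (7), for shAdar1 minus shControl2 without shControl2 replicate 2 (9), and for shZfr minus shAdar1 without either shZfr sample (10).

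The replicate numbers shared by the groups were not taken to pair the samples, since the correlation of deviations ran from −0.18 to 0.37 over the 10 pairs of groups. It was over 0.1 among shControl2, shAdar1 and shAdar2 (0.11, 0.17 and 0.37), which is a hint from the data and not the design. With a replicate block, 13 members were called in shAdar1 minus shControl1 and 16 in shAdar1 minus shControl2, 31 and 30 in shAdar2 against shControl1 and shControl2, 18 and 25 in shZfr against shControl2 and shControl1, 26 between the controls, 25 in shAdar2 minus shAdar1, 34 in shAdar2 minus shZfr and 21 in shZfr minus shAdar1, and 5, 19 and 7 against both controls in shAdar1, shAdar2 and shZfr. The largest of these moves is under 1.5 times the unblocked count. Shares of all genes called were not counted with the block or with 1 sample left out. Whether all genes moved alike cannot be seen from these counts. Of 2440 values of called members under settings other than leaving out a sample, 2251 kept direction and call, 182 lost the call and 7 turned. Of 2310 values with 1 sample left out, 2034 kept both, 276 lost the call and 0 turned. The total of 2440 merges unlike settings. Pooling the controls kept 46 values, lost the call in 77 and turned 7, while leaving out Rn45s kept 231 and lost 0. With 2 samples a group, small changes lie below detection.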
